A study of Mus musculus with 2 samples.

Results

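The 37 genes described here belong to the BMP and TGF-beta pathway. They comprise 11 ligands named Bmp or Gdf, the proteinase Bmp1, 5 TGF-beta or activin ligands, 4 type I and 4 type II receptors and the co-receptor Tgfbr3. They also include 5 secreted antagonists or modulators, 2 inhibitory Smads and 4 Id genes. The ligands named Bmp or Gdf are called BMP ligands below, a grouping by name only. The members were taken by symbol from a fixed list, and all 37 were found among the 21937 gene features of the library. UMIs, the unique tags that mark single captured transcripts, were summed over the cells of each annotated cell type and each cell suspension.

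The library held cells of whole mouse embryos at E11.5 that carried a piggyBac transgene with EGFP behind CAG, a promoter active in most tissues, linked to a DNA barcode. Suspensions F0_8 and F0_9 each came from 1 founder embryo, in which transposase mRNA and donor DNA had been given to the fertilized egg, and founders made in this way can be mosaic for the insertions. Suspension F1_1 was 1 F1 embryo. In F1_mix the cells of 2 further F1 embryos had been combined as an artificial mosaic, and both generations carried the transgene and no group without it was measured. The methods name C57BL/6J oocytes and sperm for in vitro fertilization, the sex of the embryos was not determined, and no source used here gives the cross behind the F1 embryos. The 4 suspensions were tagged with oligos and run as 1 library, and the p-values given measure only the spread between 4 suspensions.

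BMP and TGF-beta ligands are secreted dimers that bring type I and type II serine/threonine kinase receptors together. BMPs mainly activate Smad1, Smad5 and Smad9, whereas TGF-beta and activins mainly activate Smad2 and Smad3, and both groups of Smads enter the nucleus with Smad4. In the midgestation embryo these signals pattern the limb, the skeleton and the dorsal neural tube, and they act in vessels. Id genes, which encode helix-loop-helix proteins without a DNA-binding region, and the inhibitory Smads are well-known BMP targets.

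The 5678 annotated cells were spread over 16 cell types, with 1310 to 1599 cells and 16052917 to 19160116 gene UMIs per suspension, and no cell barcode was shared between suspensions. In 12 types, called deep here, the median cell held 10898 to 29076 UMIs, whereas in the 4 shallow types (Endodermal Progenitor, Foregut, Hepatocyte and Midgut) it held 721.5 to 1674, and these are described separately. Marker sets of 4 genes did not follow all type names. The neuronal set was highest in Neuroectoderm/Glia, at 70.6 UMIs per 10000 against 53.7 in CNS Neuron, while the neuroectodermal set (Sox2, Pax6, Fabp7, Hes5) was at 0.721 in that type. The macrophage set reached 33.2 in Hematoendothelial Progenitor/Endothelium, where the endothelial set stood at 6.09. The cartilage set was at 5.35 in Chondrocyte and 6.87 in Gut Mesenchyme/Amniotic Mesoderm. The set of Gut Mesenchyme/Amniotic Mesoderm itself was at 1.35 in that type and 1.82 in Ependymal Cell. The erythroblast set was at 32.0 in Erythroblast, 32.2 in Hematoendothelial Progenitor/Endothelium and 2186 in Erythrocyte. The sets of the 4 shallow types were all highest in other types. The deposited names are used below as labels only.

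The sequences upstream of 4 members are shown first because these target genes follow different patterns among the types. Id2 and Id3 were high in mesenchyme, Id4 was high in the neural types, and Smad6 was high in the Hematoendothelial label. RefSeq windows on GRCm38.p6 were at hand for 25 of the 37 members. The bases before the start that each window uses (for Smad6 also the first 4 after it) are printed 5′ to 3′, with capitals for matches to the motifs named after them, and Id2 is at chr12:25096093-25096342 (minus strand), Id3 at chr4:136143572-136143821 (plus), Id4 at chr13:48260866-48261115 (plus) and Smad6 at chr9:64022056-64022309 (minus).
Id2: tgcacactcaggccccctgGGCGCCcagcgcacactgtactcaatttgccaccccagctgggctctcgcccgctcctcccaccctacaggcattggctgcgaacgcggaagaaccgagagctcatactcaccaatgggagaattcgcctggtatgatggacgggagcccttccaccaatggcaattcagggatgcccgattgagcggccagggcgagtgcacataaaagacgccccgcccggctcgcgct
Id3: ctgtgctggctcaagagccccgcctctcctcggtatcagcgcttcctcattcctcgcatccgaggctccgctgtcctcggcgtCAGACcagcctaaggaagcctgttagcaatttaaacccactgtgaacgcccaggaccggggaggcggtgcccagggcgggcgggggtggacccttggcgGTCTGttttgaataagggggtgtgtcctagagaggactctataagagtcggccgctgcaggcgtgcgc
Id4: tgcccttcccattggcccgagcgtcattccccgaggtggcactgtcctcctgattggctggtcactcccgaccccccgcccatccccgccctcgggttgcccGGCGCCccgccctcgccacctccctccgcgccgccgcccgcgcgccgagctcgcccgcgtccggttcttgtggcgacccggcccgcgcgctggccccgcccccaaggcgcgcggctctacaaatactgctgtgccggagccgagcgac
Smad6: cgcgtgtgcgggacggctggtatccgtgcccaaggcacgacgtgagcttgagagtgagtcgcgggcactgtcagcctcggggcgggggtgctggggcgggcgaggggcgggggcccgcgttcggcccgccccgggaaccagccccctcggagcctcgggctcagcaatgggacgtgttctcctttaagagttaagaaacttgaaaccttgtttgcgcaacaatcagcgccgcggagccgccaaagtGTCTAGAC
Both strands of the 300 bases around each start were searched for GGCGCC, a GC-rich element through which BMP Smads can bind, for the Smad box GTCTG, for the palindromic Smad element GTCTAGAC, for the E-box CACGTG and for the TATA box TATAAA, and GTCTG is contained in none of the others. Id2 and Id4 each held 1 GGCGCC, at 231 and 148 bases before the start, and 8 of the 25 members held this motif against 11.87% of 32851 windows of all genes. Id3 held 2 GTCTG matches, at 68 and 167 bases before the start, and GTCTG was present in 12 of the 25 members and 49.59% of all windows. Smad6 alone among the 25 members held the palindrome GTCTAGAC, which was present in 70 windows of all genes, or 0.21%. It begins 4 bases before the start that the window uses, but the RefSeq span of the gene reaches 26 bases further upstream, and by that start the palindrome begins 22 bases inside the gene. The E-box was found in 3 members and 7.15% of windows, and the TATA box in 4 members and 13.62% of windows. A member was counted if any of its windows held the motif, whereas the percentages count single windows. Counts and percentages are therefore not in like units. These matches describe the letters and are not evidence of binding.

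Levels are given as UMIs per 10000 gene UMIs outside mitochondrial genes. Because a 3′ library counts transcript ends and the genes differ in how well they are captured, levels are compared between types for 1 gene and not between genes. Where 4 values are listed, they belong to F0_8, F0_9, F1_1 and F1_mix in that order. In a bulk sum, fewer expressing cells and less RNA per cell cannot be told apart.

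Among the BMP ligands, Bmp4, which acts in limb, skeletal and ventral mesoderm development, was highest in Chondrocyte. Its level there was 0.882, 0.882, 0.814 and 0.861 in the 4 suspensions, and every one of these values lay above those of the other deep types, the next being Gut Mesenchyme/Amniotic Mesoderm at 0.710. Only 5 UMIs of Bmp4 were found in CNS Neuron (0.0084) and 6 in Neuroectoderm/Glia (0.010). At 5000 UMIs per cell, 26.6% (21.6 to 32.1) of Chondrocyte cells held a Bmp4 UMI and none of 60 Erythrocyte cells did, and without thinning the Chondrocyte share was 41.9%. Bmp5, a ligand needed for normal ear and rib skeleton, was highest in Mesodermal Progenitor, at 0.349, 0.531, 0.373 and 0.340, and overlapped with Chondrocyte at 0.353. Bmp7, known for its roles in kidney and eye, led in Epithelial Cell, at 0.289, 0.733, 0.773 and 0.574. F0_8 was low there and fell within the range of 5 other types.

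Bmp6, a ligand of the dorsal midline and later the main inducer of hepcidin, was a ligand of the Ependymal Cell label. Its level there was 0.670, 0.705, 1.09 and 0.970, which put all 4 suspensions above every other deep type, and the pooled level of 0.857 was 5.79 times that of the next type, Neuronal Progenitor. After each cell had been thinned to 5000 UMIs, 23.7% (16.8 to 31.8) of 135 Ependymal cells held a Bmp6 UMI, and 29.9% of 137 without thinning. None of 60 Erythrocyte cells did, which by the limit of 3 counts allows a share of cells with a UMI of up to 5%, although the median Erythrocyte cell held 24238 UMIs outside mitochondrial genes and the median Ependymal cell 11788.

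Gdf11, which limits the number of neurons and sets the position of vertebrae, was led by neurons. It was at 0.335, 0.403, 0.734 and 0.456 in CNS Neuron and overlapped with Neuroectoderm/Glia at 0.386. Bmp2, which is needed for heart and bone formation, had its highest pooled level in Hematoendothelial Progenitor/Endothelium (0.202), from only 28 UMIs, and overlapped there with 4 other types. Gdf5, a factor of forming joints, was highest in Gut Mesenchyme/Amniotic Mesoderm (0.116). Gdf6 had 80 UMIs in all deep types. Bmp3 (0.0497) and Gdf10 (0.254), 2 relatives with atypical signaling, led in Chondrocyte. For Bmp3, Gut Mesenchyme/Amniotic Mesoderm led without F0_8 or without F1_mix, and Epithelial Cell without F1_1. Gdf7 was represented by 6 UMIs. Bmp1, a proteinase that trims procollagen and cleaves Chordin and is no BMP ligand in spite of its name, was highest in Gut Mesenchyme/Amniotic Mesoderm (0.637).

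The TGF-beta ligands divided between the Hematoendothelial label, in which most cells held more macrophage than endothelial marker UMIs, and the mesenchymal labels. Tgfb1, an immune and vascular regulator, was at 4.44, 1.93, 2.65 and 2.29 in Hematoendothelial Progenitor/Endothelium. All 4 values lay above those of every other deep type, and the pooled level of 2.70 was 3.20 times that of Erythroblast (0.843). At 5000 UMIs per cell, 61.3% (49.4 to 72.4) of the 75 cells of that label held a Tgfb1 UMI, against 31.0% of Erythroblast and 5% of Erythrocyte cells, and without thinning the shares were 92.1%, 72.2% and 25%. Tgfb2, which acts in heart cushion and skeletal development, was at 3.12, 3.11, 2.74 and 2.25 in Gut Mesenchyme/Amniotic Mesoderm. Only Chondrocyte, at 2.38, overlapped with it. Tgfb3, needed for palate fusion, led in Chondrocyte (0.175) and Inhba, which encodes the activin A subunit, in Gut Mesenchyme/Amniotic Mesoderm (0.258). For Inhba, Chondrocyte led without F0_8 or without F1_1. Inhbb had 46 UMIs in the deep types.

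**Figure D1:**
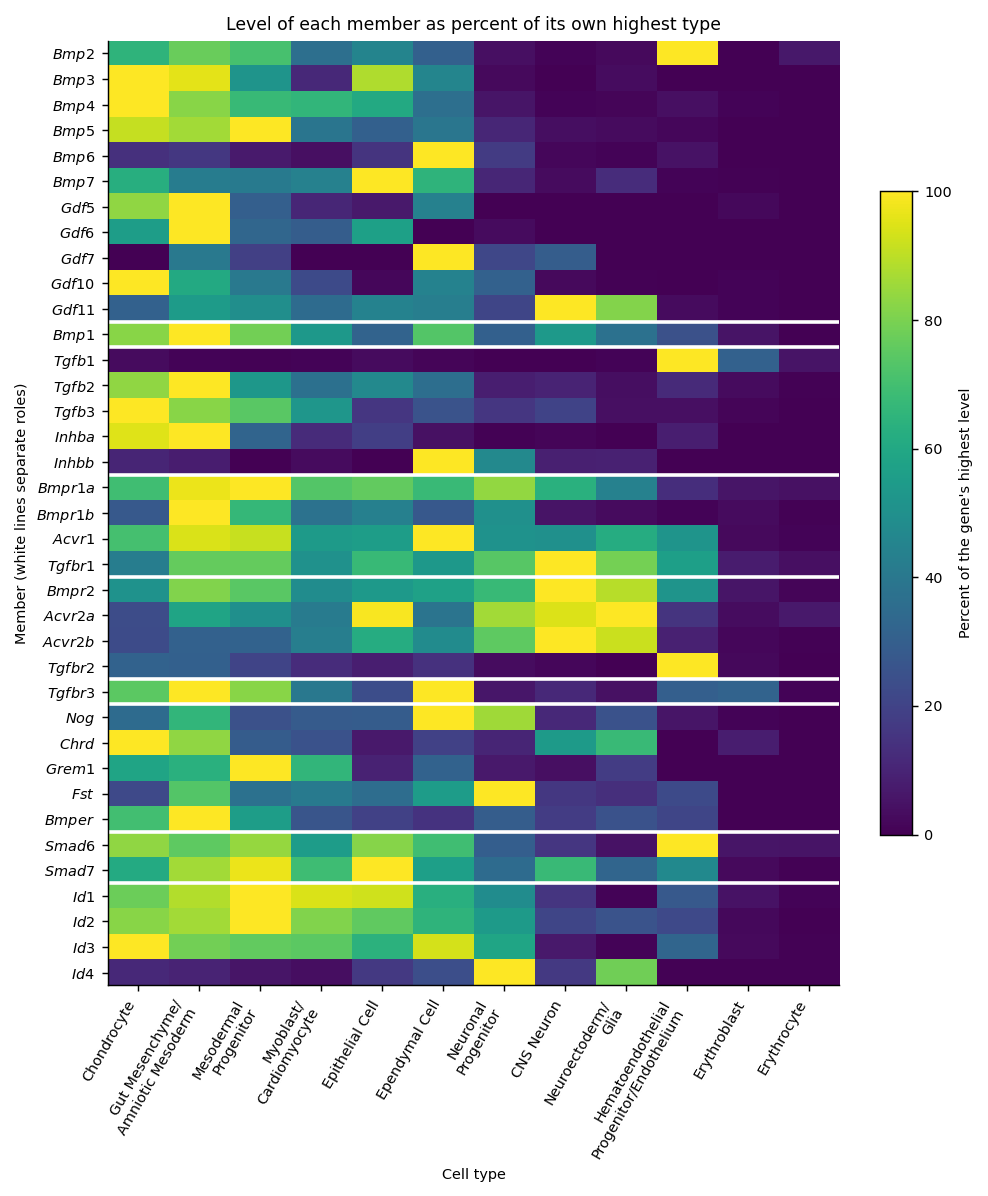
Level of the 37 members (vertical axis, grouped by role) in the 12 deep cell types (horizontal axis), with colour giving the percent of the gene's own highest level, pooled over 4 suspensions. The ligands Bmp4, Gdf5, Tgfb2 and Inhba are bright in the mesenchymal labels on the left, the receptors Tgfbr1, Bmpr2 and Acvr2b in neural labels, and nearly all members are dark in Erythroblast and Erythrocyte.

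Of the type I receptors, Bmpr1a, a broadly used BMP receptor, was at 2.48, 2.39, 2.61 and 2.31 in Mesodermal Progenitor, its share of cells with a UMI there was 66.5% (62.1 to 70.6) at 5000 UMIs against 6.67% in Erythrocyte (96.4% and 21.7% without thinning), and its lowest level outside the red blood cells was 0.318 in Hematoendothelial Progenitor/Endothelium. Bmpr1b, the BMP receptor of cartilage condensations, was at 4.32, 4.86, 2.80 and 2.61 in Gut Mesenchyme/Amniotic Mesoderm. The founder suspensions were high and the F1 suspensions low in that type, and the F1 values overlapped with Mesodermal Progenitor at 2.54. Bmpr1a was the member whose order over the 10 deep types outside red blood cells was most like that of Bmpr1b (Spearman's rho 0.988 over 10 types of the same library). Acvr1, the receptor mutated in fibrodysplasia ossificans progressiva, was spread more evenly, with 0.642 in Ependymal Cell and 0.605 in Gut Mesenchyme/Amniotic Mesoderm. Tgfbr1, the type I receptor for TGF-beta, was at 1.51, 1.61, 1.73 and 1.47 in CNS Neuron. It stood apart there, although the nearest suspension of another type (F1_mix in Hematoendothelial Progenitor/Endothelium, at 1.45) was close.

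Bmpr2 and Acvr2b were highest in CNS Neuron, and Acvr2a was shared with other types. Bmpr2, the BMP type II receptor, was at 1.99, 2.07, 2.05 and 1.75 in CNS Neuron, and overlapped with Neuroectoderm/Glia at 1.74. Acvr2b, an activin receptor, was at 2.04, 2.01, 1.89 and 2.03 in CNS Neuron and stood apart narrowly, since the highest Neuroectoderm/Glia value was 1.86. Acvr2a, its close relative, had nearly the same pooled level in Neuroectoderm/Glia (1.01) and Epithelial Cell (1.01), and Epithelial Cell led without either founder and in cells under 5% mitochondrial UMIs. Tgfbr2, which binds TGF-beta directly, went the other way. It was at 1.14, 1.20, 1.17 and 1.80 in Hematoendothelial Progenitor/Endothelium, 3.18 times Chondrocyte, with no overlap, and at 0.0017 in Neuroectoderm/Glia. Tgfbr3, or betaglycan, which presents TGF-beta2 to its receptors, was at 1.26 in both Gut Mesenchyme/Amniotic Mesoderm and Ependymal Cell.

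Secreted antagonists were led by different types. Fst, which encodes the activin-binding follistatin, was at 0.543, 0.711, 0.618 and 0.593 in Neuronal Progenitor. Its values overlapped with those of 5 other types, and 19.7% (16.6 to 23.2) of Neuronal Progenitor cells held a UMI at 5000 UMIs per cell, against none of 60 Erythrocyte cells. Nog, whose product noggin blocks BMP2 and BMP4, was highest in Ependymal Cell (0.259) and second in Neuronal Progenitor (0.222). Chrd, encoding chordin, was sparse, with 149 UMIs and 0.0584 in Chondrocyte. Grem1, a BMP antagonist of the limb bud, was highest in Mesodermal Progenitor (0.125), and Bmper, which binds BMPs and modulates them in vessels, in Gut Mesenchyme/Amniotic Mesoderm (0.659).

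The targets Id1, Id2 and Id3 were high across the mesenchymal, epithelial and ependymal labels. In every suspension they were also higher in Neuronal Progenitor than in the other neural labels. Id3 was at 7.45, 7.56, 8.17 and 7.45 in Chondrocyte, with Ependymal Cell next at 7.13 and overlapping, and 83.3% (78.5 to 87.4) of Chondrocyte cells held an Id3 UMI at 5000 UMIs per cell. Id1 was at 3.16, 3.37, 3.63 and 3.11 and Id2 at 3.66, 3.82, 4.53 and 4.33 in Mesodermal Progenitor, in each case overlapping with 3 other types. Id4 had another order, with 3.33, 1.80, 1.53 and 1.49 in Neuronal Progenitor, where F0_8 was high, and 1.55 in Neuroectoderm/Glia. Smad6, which blocks BMP receptors, was at 0.470, 0.456, 0.495 and 0.619 in Hematoendothelial Progenitor/Endothelium and overlapped with 5 other types. Smad7, which blocks both branches, was at 0.763, 0.841, 0.966 and 1.01 in Epithelial Cell.

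In all, 6 of the 34 members with at least 100 UMIs in the deep types stood apart, meaning that the lowest suspension of 1 deep type lay above the highest suspension of every other deep type. This was 17.6% of those members, against 22.0% of 13060 genes by the same rule, and the share was close to that background. They were Bmp4, Bmp6, Tgfb1, Tgfbr2, Tgfbr1 and Acvr2b. The leading type of 30 of the 37 members was the same under 7 alternatives.

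**Figure D2:**
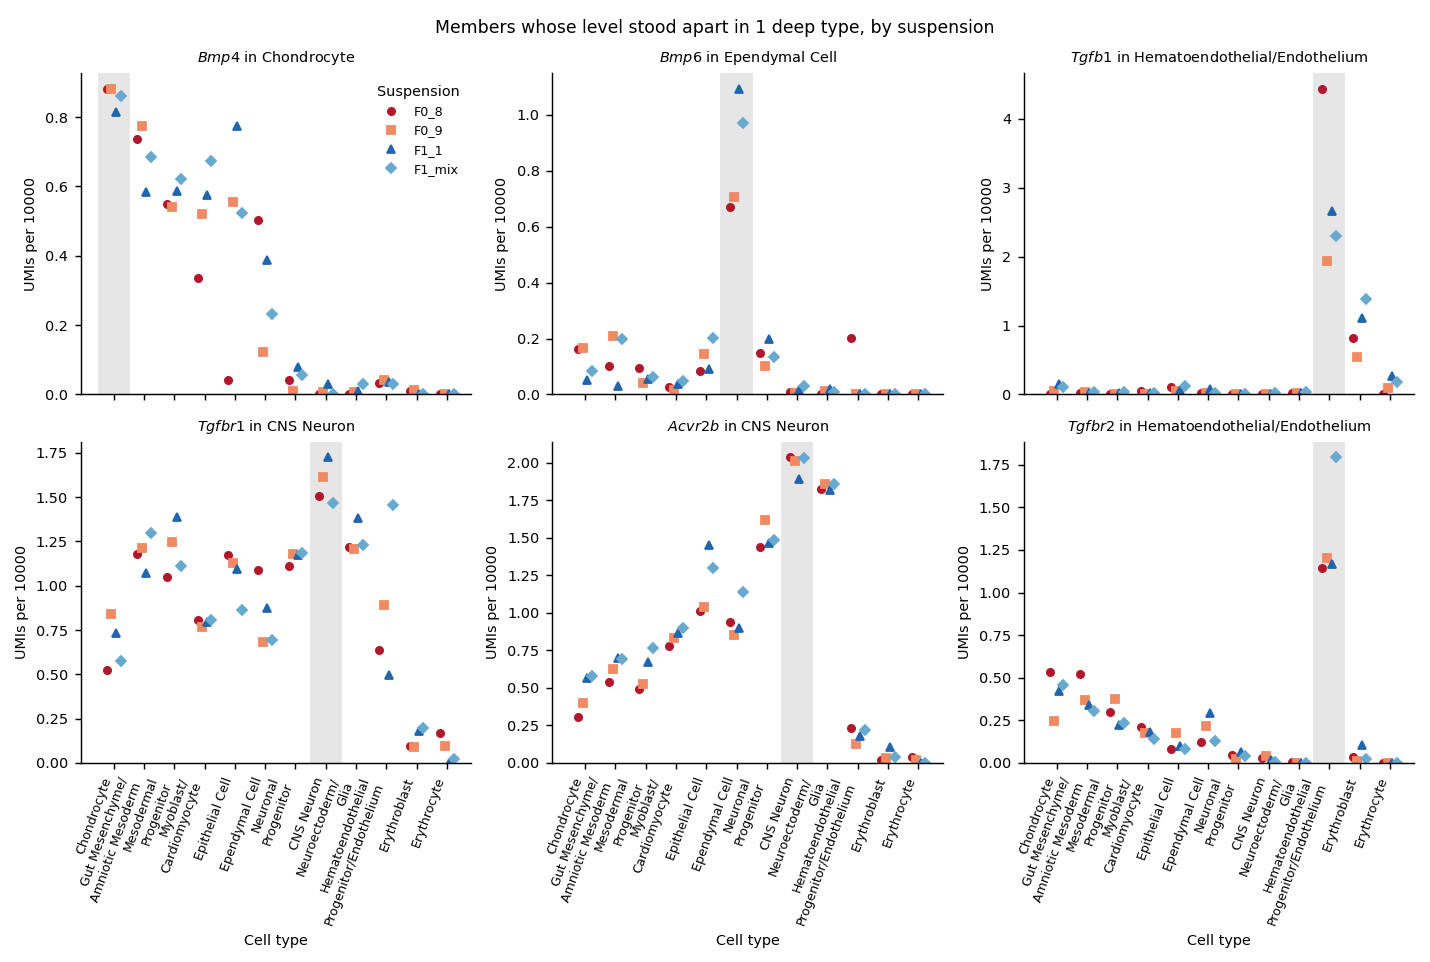
Levels (vertical axes, UMIs per 10000 outside mitochondrial genes, linear from 0) of the 6 members that stood apart, in the 12 deep types (horizontal axes), with 1 point per suspension and the leading type shaded. Bmp6, Tgfb1 and Tgfbr2 are separated widely from the other types, whereas Bmp4, Tgfbr1 and Acvr2b lie just above the next suspension.

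The Erythrocyte label shows how few members' UMIs occur in red blood cells. The 37 members together had 100 UMIs in Erythrocyte, or 0.647 per 10000, against 21.1 in barcodes of 1 to 100 UMIs outside the suspensions, which hold mainly free RNA. The Erythrocyte level was 3.07% of that value. Tgfb1 made up 22 of the 100 UMIs and Bmpr1a 17.

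The 4 mesenchymal labels (Chondrocyte, Gut Mesenchyme/Amniotic Mesoderm, Mesodermal Progenitor and Myoblast/Cardiomyocyte) were then set against the 3 neural labels (CNS Neuron, Neuronal Progenitor and Neuroectoderm/Glia). Of 33 members with at least 100 UMIs in these types, 23 were higher in mesenchyme in the sense that all 4 mesenchymal suspension values lay above all 4 neural ones, 6 were higher in the neural labels and 4 overlapped. Over all 12523 genes with as many UMIs, 29.3% were higher in mesenchyme and 30.1% in the neural labels. The median member was 2.46-fold higher in mesenchyme (log2 difference 1.30, or 1.32 with Gdf5 at its lower bound), and the median over all genes was -0.01.

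By role, 6 of 8 BMP ligands with enough UMIs, all 4 TGF-beta or activin ligands, Bmp1, 3 of 4 type I receptors, Tgfbr2, Tgfbr3, the antagonists Grem1 and Bmper, both inhibitory Smads and 3 of 4 Id genes were on the mesenchymal side. Bmp4 was at 0.615, 0.654, 0.600 and 0.677 in mesenchyme and 0.0158, 0.0079, 0.0513 and 0.0327 in the neural labels, a ratio of 24.2. Among members with at least 100 UMIs and UMIs on both sides, Inhba had the highest ratio at 85.1, but only 3 neural UMIs lay behind it. Its 95% counting interval ran from 28.9 to 414.1, and without F0_9 the ratio was 51.3. Bmp4, Bmp2 (22.0-fold), Bmp5 (11.4-fold) and Tgfbr2 (10.8-fold) followed. Gdf5 had no UMI among 20107538 neural UMIs and was at least 36.4-fold higher in mesenchyme, taking 3 counts over the neural group as the limit. This bound was 17.4 without F0_8 and 23.4 without F0_9, and most of the mesenchymal Gdf5 UMIs came from these founders. By the 95% counting interval, as printed for Inhba, the lower limit of the Gdf5 ratio was 29.3. Id1 (3.72-fold), Id3 (2.95-fold) and Id2 (2.43-fold) differed less than most ligands.

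The 6 members on the neural side were Gdf11, Tgfbr1, Bmpr2, Acvr2a, Acvr2b and Id4. Id4 was at 2.12, 1.20, 1.22 and 0.940 in the neural labels and 0.198, 0.176, 0.0895 and 0.0901 in mesenchyme, a ratio of 10.2. The 5 others were 1.29- to 2.52-fold higher, so 3 of the 4 type II receptors lay on the neural side. Nog, Chrd, Fst and Bmp6 overlapped between the lineages.

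**Figure D3:**
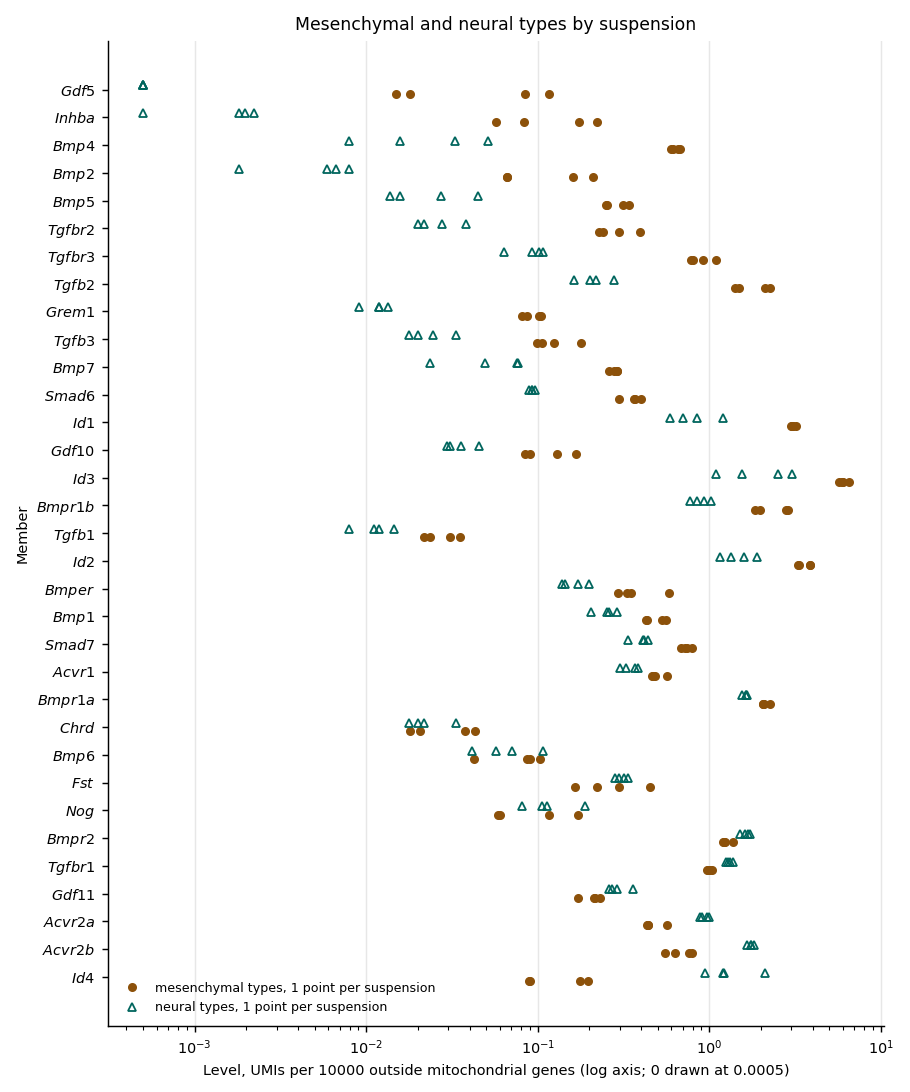
Levels of the 33 members with at least 100 UMIs (vertical axis) in the mesenchymal types (filled circles) and the neural types (open triangles), with 1 point per suspension on a log axis of UMIs per 10000 outside mitochondrial genes, where 0 is drawn at 0.0005. Circles lie right of all triangles for 23 members from Gdf5 to Bmpr1a and left of them for the 6 at the bottom, from Bmpr2 to Id4.

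Within the neural labels, 8 of 22 members with at least 100 UMIs were higher in Neuronal Progenitor than in both other types in all suspensions, against 23.6% of 10769 genes, and 4 were lower, against 18.7%. The 8 were Bmp6, Bmpr1a, Bmpr1b, Nog, Fst, Id1, Id2 and Id3, and the 4 were Gdf11, Tgfbr1, Bmpr2 and Acvr2b. Id3 was at 2.78, 4.03, 5.55 and 5.19 in Neuronal Progenitor, at 0.204, 0.384, 0.843 and 0.631 in CNS Neuron and at 0.0440, 0.0891, 0.134 and 0.112 in Neuroectoderm/Glia. The 3 types did not overlap. Bmpr1b had a similar step, from 1.92 in Neuronal Progenitor to 0.197 and 0.117.

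At 5000 UMIs per cell, 52.9% (48.8 to 57.0) of Neuronal Progenitor cells held an Id3 UMI, against 9.71% (7.29 to 12.6) in CNS Neuron, 4.29% (2.68 to 6.49) in Neuroectoderm/Glia and 1.67% (0.0422 to 8.94) in Erythrocyte. Without thinning the shares were 64.3%, 15.6%, 7.37% and 11.7%. The Neuroectoderm/Glia share was within the interval of Erythrocyte and is read as background. Id4 did not share the pattern, since it was at 1.55 in Neuroectoderm/Glia and 0.333 in CNS Neuron.

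The Hematoendothelial label was divided by its markers, as 26 of its cells held more endothelial than macrophage marker UMIs, 48 the reverse and 2 neither. Id3 was at 6.45, 5.76, 11.6 and 4.80 in cells with higher endothelial markers and at 0, 0.570, 0.319 and 0 in those with higher macrophage markers. Smad6 was at 0.953, 0.672, 1.37 and 1.86 in the first and 0, 0.407, 0.0532 and 0.0452 in the second. Neither gene overlapped between the cells, and Smad7 behaved likewise (0.733 to 1.58 against 0 to 0.213). Tgfb1 (2.38 and 2.78) and Tgfbr2 (1.26 and 1.36) had similar pooled levels in both and overlapped, and Id1 overlapped as well. The sums rest on 7, 7, 6 and 6 cells with higher endothelial markers and on 10, 17, 9 and 12 with higher macrophage markers.

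In the Ependymal Cell label, 51 of 137 cells held a UMI of the roof plate set (Lmx1a, Msx1, Wnt1, Wnt3a). Bmp6 was at 1.72, 2.52, 2.90 and 1.80 in these cells and at 0.127, 0, 0.113 and 0.238 in the other 86. Nog (0.589 against 0.0708) and Bmp7 (0.868 against 0.142) were also higher in them in every suspension, and Id1 was at 5.66, 3.65, 2.55 and 2.97 against 0.889, 1.11, 1.99 and 0.834, without overlap. Tgfb2 had the opposite order, at 0.326 against 1.43, and Id3 overlapped. The median depth was 11701 and 11818 UMIs in the 2 sets of cells, and Msx1 is itself a BMP target.

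**Figure D4:**
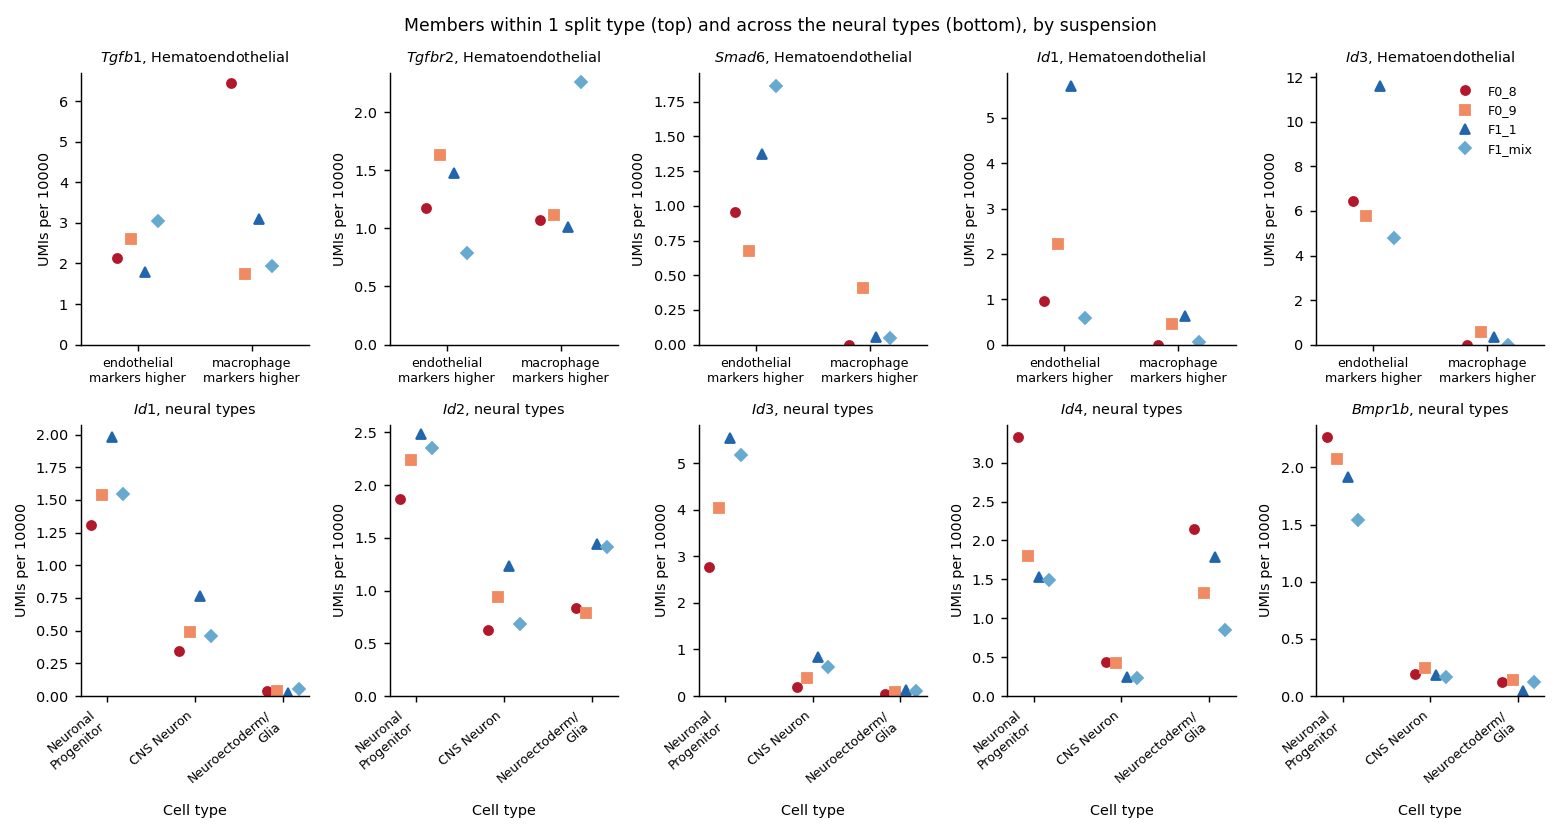
Levels (vertical axes, UMIs per 10000 outside mitochondrial genes, linear from 0) with 1 point per suspension. The top panels split the Hematoendothelial cells by their markers, where Smad6 and Id3 separate and Tgfb1, Tgfbr2 and Id1 overlap, and the bottom panels show the neural types, where Id1, Id2, Id3 and Bmpr1b are highest in Neuronal Progenitor and Id4 is not low in Neuroectoderm/Glia.

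The 4 shallow types had other proportions among the members. Bmpr1b was at 7.04 in Foregut and 6.94 in Hepatocyte, above its pooled level in every deep type, and Bmpr2 was at 4.54 in Midgut. Id3, in contrast, was at 0.263 to 1.37 in the 4 types and Id2 at 0.322 to 0.671. Mitochondrial genes held 17.8% to 50.7% of UMIs in these types against at most 2.77% in the deep ones, and the part of this in the members' values was not tested.

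Whether the members differed between founder and F1 embryos was tested in the 13 types with at least 20 cells in each suspension. There, 4 members passed the test in 5 of 256 pairs of member and type, or 1.95%, against 0.752% of 99241 pairs over all genes (edgeR's quasi-likelihood test, Benjamini-Hochberg adjusted p under 0.05). The pairs were Bmp2 in Chondrocyte and Mesodermal Progenitor, Gdf5 and Bmpr1b in Gut Mesenchyme/Amniotic Mesoderm, all higher in founders, and Id2 in Neuroectoderm/Glia, lower in founders. In all, 65 member pairs (25.4%) had an unadjusted p under 0.05, against 10081 pairs (10.2%) over all genes. Of the 5 pairs, Bmp2 in Chondrocyte and Gdf5 in Gut Mesenchyme/Amniotic Mesoderm reached the cutoff of the filter on low counts in the founders only, the group in which they were high, and the other 3 reached it in all 4 suspensions. Leaving out the member pairs that reached it in 1 generation only, 3 of 245 pairs passed, or 1.22%, and the share over all genes was not split in this way. Gdf6, Gdf7, Tgfb1 and Inhbb were tested in no type because they did not pass the filter on low counts, and Hematoendothelial Progenitor/Endothelium, where Tgfb1 was high, had too few cells per suspension for the test. Levels did not overlap between the generations in 125 member pairs, or 48.8%, against 40.5% of all pairs. The types share the same 4 suspensions and are not independent of each other.

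Bmp2 was at 0.218, 0.235, 0.0263 and 0.0236 in Chondrocyte. Both founders were high and both F1 suspensions low, with 20, 21, 2 and 2 UMIs behind the values, and the log2 difference was 3.10 ± 0.55 (SE, edgeR adjusted p = 0.0212, n = 2 suspensions each). Because Bmp2 entered the test in this type through the founders alone, this p is given as a description and not as a test. Without the filter on low counts the edgeR adjusted p was 0.387, and the call was also lost with DESeq2 and without either founder. In Mesodermal Progenitor it was at 0.273, 0.211, 0.0699 and 0.0644, a difference of 1.84 ± 0.28 (edgeR adjusted p = 0.00571). The adjusted p was 0.0734 with DESeq2 and 0.100 by edgeR without F0_8, where the difference was 1.64. The other 2 types tested had the founders above the F1 suspensions too, with log2 differences of 0.79 in Gut Mesenchyme/Amniotic Mesoderm (edgeR adjusted p = 0.277) and 0.92 in Myoblast/Cardiomyocyte (edgeR adjusted p = 0.461).

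Gdf5 was at 0.185, 0.151, 0.0442 and 0.0194 in Gut Mesenchyme/Amniotic Mesoderm, from 59, 33, 6 and 4 UMIs. The groups did not overlap, and the log2 difference was 2.48 ± 0.41 (edgeR adjusted p = 0.0165). Gdf5 also entered the test through the founders alone, and its p is a description. The fit without a filter also called it, and with DESeq2 the adjusted p was 0.0763, with edgeR 0.225 without F0_8 and 0.0639 without F0_9. Bmpr1b, its preferred type I receptor, was at 4.32, 4.86, 2.80 and 2.61 in the same type, with 380 or more UMIs in each suspension. The difference of 0.74 ± 0.08 (edgeR adjusted p = 0.00233) rested on the most UMIs of the 5. In Mesodermal Progenitor the difference of Bmpr1b was 0.04 ± 0.11, with overlapping values.

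Id2 was at 0.837, 0.784, 1.45 and 1.41 in Neuroectoderm/Glia, lower in both founders, and fell by 0.82 ± 0.12 on the log2 scale (edgeR adjusted p = 0.0216). The adjusted p was 0.112 with DESeq2, and by edgeR 0.0927 without F1_1 and 0.117 without F1_mix. Id3 did not pass the filtered edgeR test on all 4 suspensions in any type. Its lowest adjusted p in that fit was 0.0516, in CNS Neuron, with levels of 0.204, 0.384, 0.843 and 0.631, and in Neuronal Progenitor it was 0.0731. Some other settings called Id3 and some did not, with lower levels in founders in each. In Neuronal Progenitor the adjusted p was 0.00639 with DESeq2, 8.39e-05 by edgeR without the filter and 0.00196 by edgeR without F0_9, but 0.186 without F0_8 (log2 difference -0.45), 0.118 without F1_1 and 0.0637 without F1_mix. In CNS Neuron it was 1.37e-07 without the filter, 0.00194 without F0_9 and 0.00333 without F1_mix, but 0.561 without F0_8.

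Some marker sets differed between the generations in the same types. The cartilage set (Sox9, Col2a1, Acan, Matn1) was at 6.92, 6.37, 3.07 and 4.64 in Chondrocyte, at 8.18, 7.80, 5.22 and 4.94 in Gut Mesenchyme/Amniotic Mesoderm and at 5.85, 5.06, 3.40 and 4.33 in Mesodermal Progenitor, with both founders higher in each. The neuronal set was also higher in both founders in these 3 types (0.989, 0.698, 0.310 and 0.461 in Gut Mesenchyme/Amniotic Mesoderm). The set of Gut Mesenchyme/Amniotic Mesoderm itself was lower in founders in that type (1.33, 1.01, 1.45 and 1.67), and the epithelial set was lower in founders in Chondrocyte and Mesodermal Progenitor. The neuronal set was at 63.6, 68.2, 78.8 and 77.0 in Neuroectoderm/Glia, where Id2 fell. Of 19 sets, 7 to 11 did not overlap between the generations in these 4 types, or 36.8% to 57.9%. The share over all gene and type pairs was 40.5%, but it counts single genes in 13 types and not sums of genes. The part of the cell makeup of a type in the members' differences was not tested.

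**Figure D5:**
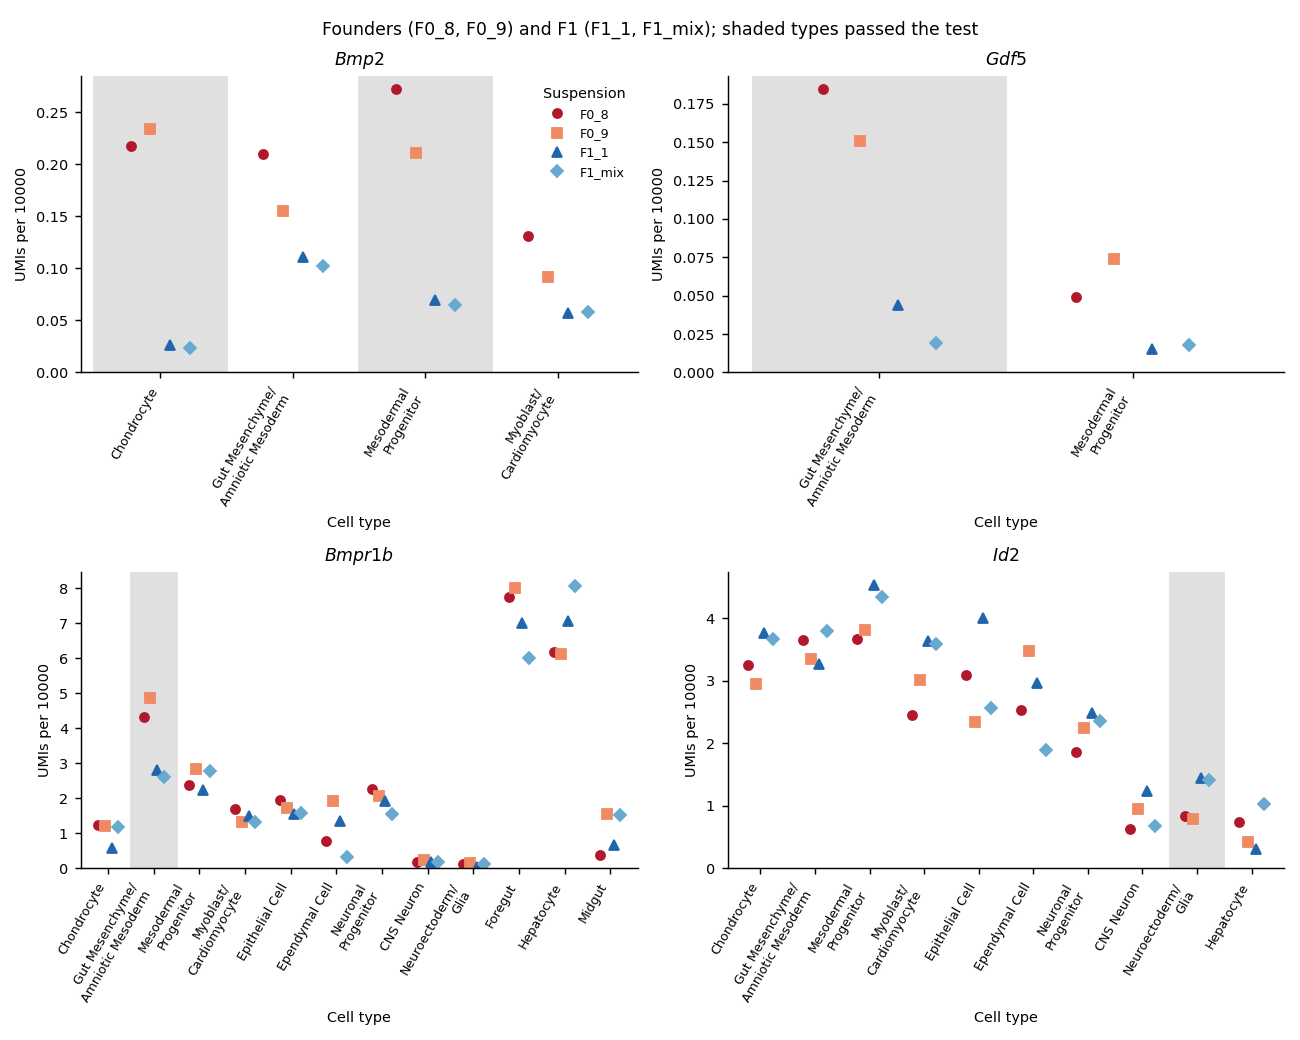
Levels (vertical axes, UMIs per 10000 outside mitochondrial genes, linear from 0) of the 4 members called in at least 1 type, in each type tested (horizontal axes). Founders are in red shades and F1 suspensions in blue. In the shaded types, where the member was called, the 2 founder points lie above the F1 points for Bmp2, Gdf5 and Bmpr1b and below them for Id2. Bmp2 in Chondrocyte and Gdf5 entered the test through the founders alone, and their calls are descriptions.

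From a list of 69 further ligands, receptors, modulators, Smads and targets, 68 were found. Of 43 with at least 100 UMIs in the 2 lineages, 26 were higher in mesenchyme, 8 higher in the neural labels and 9 overlapped. Over all 12523 genes with as many UMIs, 29.3% were higher in mesenchyme and 30.1% in the neural labels. Standing apart in 1 deep type were Acvrl1 (0.231) and Eng (1.21), which form the endothelial receptor of BMP9, in Hematoendothelial Progenitor/Endothelium, Mstn (0.0651), encoding myostatin, in Myoblast/Cardiomyocyte, Rgma (1.35), a BMP co-receptor, in Neuronal Progenitor, Ltbp1 (2.41), which stores latent TGF-beta in the matrix, in Gut Mesenchyme/Amniotic Mesoderm, Msx2 (0.800), a transcription factor of bone and skin, in Chondrocyte, and Gdf3 (0.231), a ligand, in Erythroblast. By the same rule, 22.0% of 13060 genes with at least 100 UMIs in the deep types stood apart, and the list is a description. Between founders and F1, 4 of 322 pairs passed the test, 1 higher and 3 lower, of which 3 are given. This was 1.24% of the pairs, against 0.752% over all genes. Bambi, a decoy receptor and BMP target, was at 0.556, 0.447, 1.58 and 1.12 in Chondrocyte and fell by 1.43 ± 0.21 (edgeR adjusted p = 0.00651), and in Gut Mesenchyme/Amniotic Mesoderm it fell by 0.95 ± 0.18 (edgeR adjusted p = 0.0296). Ltbp1 rose by 0.85 ± 0.17 in Chondrocyte (edgeR adjusted p = 0.0301).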

How the data were processed

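UMI counts were deposited by the authors as Cell Ranger matrices (version 7.2.0 per the file headers, with mm10 named in the submitters' processing notes and GRCm38 with EGFP added in the methods of the study), 1 for each suspension and 1 for all 2324710 raw barcodes. They held 21937 gene and 12 oligo features. The authors' cell table gave the suspension and cell type of each cell, and 19 of its columns were not used. The authors removed doublets before naming the types, and no doublet caller was run again. The matrices held whole counts without correction for ambient RNA. Oligo counts were left out.

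The level of a gene is its summed UMI count for each 10000 gene UMIs outside mitochondrial genes, with exact Poisson 95% intervals. Shares of cells carry exact Clopper-Pearson 95% intervals after each cell was thinned to 5000 UMIs. A count of 0 was given the limit of 3 counts. Intervals and limits cover counting error only. Cell types are clusters of the same genes, so differences between types are descriptions without p-values. Founders were compared with F1 suspensions in types with at least 20 cells in each suspension by edgeR's quasi-likelihood test on summed counts with TMM scaling, filterByExpr and Benjamini-Hochberg adjustment over all genes tested in the type, called at an adjusted p under 0.05. The test was checked on simulated counts, with a spread set by hand and not taken from these suspensions. In Gut Mesenchyme/Amniotic Mesoderm, Neuronal Progenitor and Midgut it recovered 52.7%, 55.1% and 41.4% of 2-fold changes. For 4-fold changes these were 99.0%, 95.9% and 84.1%. A member that was not called may therefore still differ. Alternatives were DESeq2, library totals, no filter, other denominators, cells under 5% mitochondrial UMIs, other cell minimums and depths, and leaving out each suspension.

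All 37 members were accounted for. Values in every suspension are given for members that stood apart in 1 type, for members called between founders and F1, and for the leading member of a role or lineage. Members with under 100 UMIs in the deep types are named with their total. Other pathway genes are named where they stood apart or were called. One result of that list is not reported here. The members and lists were chosen with earlier results of these data known, and the contrast of mesenchymal with neural types and the splits of cells within types were chosen after the levels had been seen. Promoter sequences and gene positions came from RefSeq (GRCm38.p6). Python 3.11.15, numpy 2.4.6, pandas 2.3.3, scipy 1.17.1, matplotlib 3.10.9, R 4.3.3, edgeR 4.0.16 and DESeq2 1.42.0 were used.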

Additional observations from a re-analysis of the deposited data

Results flagged for a closer look

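In 4 of the 34 members with enough UMIs, 1 suspension lay far from the others in the member's leading type, by the gap between it and its nearest neighbour relative to the whole range, and chance flags about 1 in 20 such groups. Acvr2b in CNS Neuron was at 1.89 in F1_1 and between 2.01 and 2.04 in the others. Tgfbr2 in Hematoendothelial Progenitor/Endothelium was at 1.80 in F1_mix against 1.14 to 1.20. Id3 in Chondrocyte was at 8.17 in F1_1 against 7.45 to 7.56. Id4 in Neuronal Progenitor was at 3.33 in F0_8 against 1.49 to 1.80. The founder difference of Bmpr1b pointed in opposite directions in 2 types, since both founders were above the F1 suspensions in Gut Mesenchyme/Amniotic Mesoderm and below them in Hepatocyte, where the log2 difference was -0.27 (edgeR adjusted p = 0.766). The difference between these types was not tested.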

How the results depend on the processing

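The 6 members that stood apart were 6 under 3 other choices of denominator and cells and with sums of 5 cells, 4 with sums of at least 20 cells, and 6 to 9 when 1 suspension was left out, while the share of all genes standing apart went from 22.0% to 18.6% with 20 cells and to 28.0% to 29.0% with a suspension left out. The counts of members higher in mesenchyme (23) and in the neural types (6) were 23 to 24 and 5 to 6 under all 10 alternatives, which were chosen after seeing the data, and the mesenchymal share of all genes went from 29.3% to between 25.6% and 37.1%. The count of member pairs called between founders and F1 was 5 with library totals, without mitochondrial and hemoglobin genes and in cells under 5% mitochondrial UMIs (9 types), 2 with DESeq2 (1 of them among the 5, the other being Id3 in Neuronal Progenitor), 23 without a filter on low counts (4 among the 5), and 3 to 16 when 1 suspension was left out, where the lone suspension of a generation is assumed to vary like the other generation. It was 3 without F0_8, 15 without F0_9, 16 without F1_1 and 14 without F1_mix, with 2, 3, 4 and 4 among the 5, while the share of all pairs called was 0.481%, 1.48%, 1.34% and 1.44%. Over all genes, DESeq2 called 421 pairs and the fit without a filter 3154, against 746. Bmpr1b in Gut Mesenchyme/Amniotic Mesoderm passed in all 9 alternatives (adjusted p at most 0.0249). Bmp2 in Chondrocyte missed the threshold in 4 of 9 (adjusted p up to 0.387, without either founder, without a filter and with DESeq2), Bmp2 in Mesodermal Progenitor in 2 (without F0_8 and with DESeq2), Gdf5 in 3 (without either founder and with DESeq2) and Id2 in 3 (without either F1 suspension and with DESeq2), always in the same direction. The cause was not tested. Bmp2 in Chondrocyte and Gdf5 had entered the test through the founders alone, so their calls are descriptions and not tests. Shares of cells moved with depth. The share with a Bmp4 UMI in Chondrocyte was 26.6% at 5000 UMIs, 13.5% at 2000, 38.2% at 8000 and 41.9% without thinning. For Bmpr1a in Mesodermal Progenitor these were 66.5%, 35.3%, 79.3% and 96.4%, for Fst in Neuronal Progenitor 19.7%, 9.21%, 25.2% and 29.98%, and for Id3 in Chondrocyte 83.3%, 63.5%, 92.4% and 93.2%. No paired analysis was possible because the suspensions share no replicate numbers.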
